A study of Mus musculus with 2 samples.

Results

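Fatty acid oxidation, ketone body metabolism and the peroxisome were examined through 43 genes in epithelial cells of the colon from 7-week-old C57BL/6 mice. The cells had been incubated with PBS, a buffered saline used as the control, or with MIF, taken here to be the cytokine macrophage migration inhibitory factor, and 1 Affymetrix array was made from each incubation. Both groups share strain, age and tissue, and the agent is the only labelled difference. The sources used here do not give the dose, the duration, how many animals were used or how the epithelium was isolated. For each gene, the brightest probe set (highest mean log2 over both arrays) was used among those annotated with its symbol alone. The table held 39 of the 43 genes, on 62 probe sets, out of 8721 named genes in all. Acsl1, Acsl3, Acot2 and Fabp1 had no such probe set. Signals are in arbitrary units and are given with PBS before MIF. Of the 39 genes, 35 lay on both arrays above a signal floor of 232, the 40th percentile of all signals. Acsl4 and Acadsb were below the floor with PBS only, so their differences are lower bounds and could only be positive. Acaa1b and Acot1 lay under it on both arrays, which left 37 members assessed among 5837 assessed genes. With 1 array per group there is no spread between samples, no test was possible, and every value below describes these 2 arrays.

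Mitochondrial beta-oxidation shortens acyl-CoA by repeated rounds of dehydrogenation, hydration, a further dehydrogenation and thiolysis. Long chains enter the mitochondrion as carnitine esters, and electrons from the acyl-CoA dehydrogenases pass through the electron transfer flavoprotein to ubiquinone. Peroxisomes hold a parallel pathway for very long, branched and other poorly handled chains, and depend on peroxins to import their enzymes. Colonocytes take much of their energy from butyrate, a short-chain fatty acid made by gut bacteria, which is oxidised by the mitochondrial pathway. Many of these genes are targets of peroxisome proliferator-activated receptors (PPARs), which bind DNA together with retinoid X receptors.

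Most members had a slightly lower signal on the MIF array, and none of the 35 above the floor on both arrays differed by 1.5-fold on its brightest probe set. Of the 37 assessed members, 29 (78.4%) were lower on the MIF array and 8 were higher, whereas 53.3% of all assessed genes were lower. The median log2 difference, MIF minus PBS, was -0.09 for the members and -0.01 for all assessed genes, and the interquartile range of the members ran from -0.15 to -0.0065. At 1.2-fold, 4 members were lower, against 6.29% of all assessed genes, and 1 was higher, against 6.82%. The 4 were the carnitine acetyltransferase gene Crat, the peroxisomal thiolase gene Acaa1a, the enoyl-CoA isomerase gene Eci1 and the thioesterase gene Acot8, and the 1 was the dienoyl-CoA reductase gene Decr2. Decr2 lay at the limit, and it fell short of 1.2-fold with centred columns (0.23), quantile normalization (0.22) or the signal trend removed (0.23). With the floor at the 60th percentile Acaa1a was at -0.15 and Crat and Decr2 were under the floor on both arrays. These 4 make up 10.8% of the members and rest on few genes. At 1.5-fold, 0.463% of all assessed genes were lower and 0.634% higher.

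**Figure D1:**
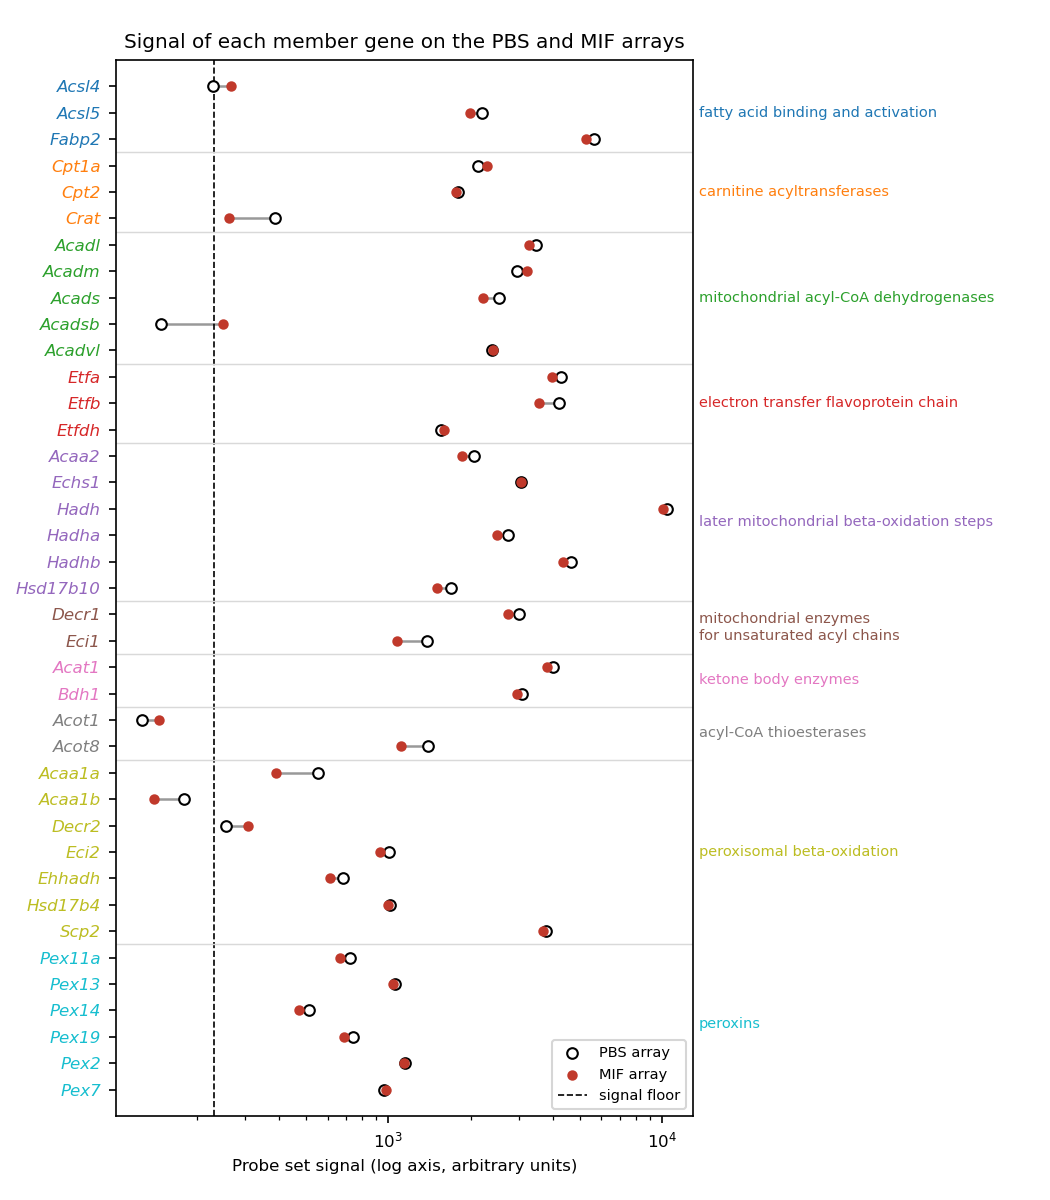
Signal of the 39 member genes in the table on the PBS array (open circles) and the MIF array (red circles), on a log axis in arbitrary units, grouped and coloured by role, with the signal floor of 232 as a dashed line. Most pairs nearly touch. The widest gaps above the floor on both arrays are those of Crat, Acaa1a, Eci1 and Acot8, each lower on the MIF array.

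Probe sets of the same gene gave the only measure of error within these arrays. It was taken from the 2 brightest probe sets of each of 1800 genes with at least 2 exceeding the floor throughout. The SD within a gene of the log2 difference, MIF minus PBS, of a single probe set was 0.13. By that yardstick 11 members were lower beyond 1 SD, against 21.1% of all assessed genes, and 2 were higher beyond it, against 19.2%. The 11 were Acaa1a, Acaa2, Acads, Acot8, Acsl5, Crat, Decr1, Eci1, Ehhadh, Etfb and Hsd17b10. The 2 were Decr2 and Acsl4, the latter as a bound. Of the 11, Acaa2 and Decr1 had another probe set of opposite sign, at 0.0033 and 0.23. This SD compares different probe sets on the same RNA, so it also holds differences between the probe sets themselves. It is 1 value for all signals and holds nothing of the variation between cell preparations.

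Since many members are known PPAR targets, their promoters were searched for the direct repeat bound by PPAR with a retinoid X receptor, AGGTCANAGGTCA, on both strands with up to 2 mismatches in its 12 defined bases. The window ran from 250 bases before to 50 bases after the RefSeq start site. RefSeq promoters were found for 36 of the 43 members, of which 3 (8.33%) held such a match, against 4.40% of 27025 genes. These were Etfa and Echs1, which were measured here, and Fabp1, which was not. The 250 bases before each start site are shown 5′ to 3′ on the strand of the gene, with the match in capitals.

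Fabp1, GRCm38.p6 chr6:71199629-71199878, + strand: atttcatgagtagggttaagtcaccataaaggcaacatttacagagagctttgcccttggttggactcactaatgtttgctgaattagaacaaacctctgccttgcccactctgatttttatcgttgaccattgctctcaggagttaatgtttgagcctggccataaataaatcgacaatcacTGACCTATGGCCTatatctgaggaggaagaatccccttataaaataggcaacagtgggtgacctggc
Etfa, GRCm38.p6 chr9:55512244-55512493, - strand: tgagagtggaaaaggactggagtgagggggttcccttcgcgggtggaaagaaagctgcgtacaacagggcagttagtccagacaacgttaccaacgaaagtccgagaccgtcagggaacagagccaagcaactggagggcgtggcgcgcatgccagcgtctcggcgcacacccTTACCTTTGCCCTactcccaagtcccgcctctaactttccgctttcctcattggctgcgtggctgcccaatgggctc
Echs1, GRCm38.p6 chr7:140116422-140116671, - strand: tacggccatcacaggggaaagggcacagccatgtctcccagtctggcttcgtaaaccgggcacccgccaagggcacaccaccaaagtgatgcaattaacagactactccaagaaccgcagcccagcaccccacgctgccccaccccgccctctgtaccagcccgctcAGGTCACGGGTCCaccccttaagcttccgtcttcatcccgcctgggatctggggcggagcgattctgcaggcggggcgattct

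The Fabp1 match had 1 mismatch and began 67 bases before the start site, in reverse orientation. In Etfa the match had 2 mismatches and began 77 bases before the start, also reversed, and in Echs1 it had 2 and began 83 bases before it in forward orientation. Etfa and Echs1 differed by -0.11 and -0.00082 on the log2 scale. The 28 assessed members with a promoter and no match had a median of -0.09, and 20 of them were lower on the MIF array. The promoters of Acaa1a, Eci1 and Acot8, which had 3 of the 4 largest lower differences, held no match, and their 250 bases before the start site are shown for comparison.

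Acaa1a, GRCm38.p6 chr9:119341044-119341293, + strand: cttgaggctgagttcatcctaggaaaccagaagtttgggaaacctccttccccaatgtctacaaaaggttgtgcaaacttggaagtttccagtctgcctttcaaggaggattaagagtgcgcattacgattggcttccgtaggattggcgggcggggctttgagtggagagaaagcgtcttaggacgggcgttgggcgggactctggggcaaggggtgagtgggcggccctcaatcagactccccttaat
Eci1, GRCm38.p6 chr17:24426433-24426682, + strand: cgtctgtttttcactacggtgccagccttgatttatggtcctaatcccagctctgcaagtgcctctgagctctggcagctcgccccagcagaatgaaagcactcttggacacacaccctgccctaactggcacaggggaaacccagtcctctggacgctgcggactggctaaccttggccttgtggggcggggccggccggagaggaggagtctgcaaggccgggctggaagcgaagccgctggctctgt
Acot8, GRCm38.p6 chr2:164804882-164805131, - strand: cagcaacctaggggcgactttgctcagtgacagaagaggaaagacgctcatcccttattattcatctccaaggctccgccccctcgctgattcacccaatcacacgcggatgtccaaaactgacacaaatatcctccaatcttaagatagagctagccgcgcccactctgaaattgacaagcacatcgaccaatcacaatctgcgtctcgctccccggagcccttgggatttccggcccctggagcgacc

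A match is a match of letters in this window and says nothing of binding in these cells.

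Fatty acid binding and activation was represented by 3 measured genes. Fabp2, the intestinal fatty acid-binding protein of enterocytes, had signals of 5657 (PBS) and 5279 (MIF), a log2 difference of -0.10. Acsl5, a long-chain acyl-CoA synthetase abundant in intestinal epithelium, was at 2197 and 1986 (-0.15). Acsl4, the synthetase that prefers arachidonic acid, was at 230 (PBS), just under the floor, and 266 (MIF), which gave a bound of at least 1.15-fold higher. Fabp2 and Acsl5 lay within 1.2-fold.

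The carnitine acyltransferases went in different directions. Cpt1a, the outer membrane enzyme that commits long-chain acyl groups to the mitochondrion, was at 2131 (PBS) and 2300.5 (MIF), a log2 difference of 0.11. A second Cpt1a probe set, of a kind that can cross-hybridise, was at 757 and 1418, a log2 difference of 0.91. The remaining one was at 195 and 243, under the floor with PBS only. All 3 Cpt1a probe sets were higher on the MIF array but by unlike amounts, so the direction was shared and the size was not. Cpt2, which regenerates acyl-CoA inside the mitochondrion, was at 1801 and 1764 (-0.03). Crat, which exchanges acetyl and other short acyl groups between carnitine and coenzyme A, was at 385 and 262, 1.47-fold lower on its single probe set. Its MIF signal lay near the floor of 232.

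Acyl-CoA dehydrogenases, which introduce a double bond at the start of each round, differ in the chain length they accept. Acadvl, for very long chains, had nearly equal signals of 2388 and 2406 on the PBS and MIF arrays. Acadl, for long chains, was at 3460 and 3266 (-0.08), and Acadm, for medium chains, at 2957 and 3202 (0.12). Acads, which acts on butyryl-CoA, was at 2539 and 2216, a log2 difference of -0.20. Acadsb, which acts on short branched chains from isoleucine, was at 148 and 249, a bound of at least 1.08-fold higher. Its full difference may be larger, and was 0.75 on the log2 scale without the floor. That value rests on a PBS signal of 148, well under the floor. The single Acadsb probe set is also of a kind that can cross-hybridise. Thus 2 of the 5 were lower and 3 higher, and the 4 above the floor on both arrays lay within 1.2-fold. With centred columns Acadvl was at -0.03.

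The electron transfer flavoprotein has an alpha and a beta subunit, and its electrons are taken up by the dehydrogenase encoded by Etfdh. Etfb, the beta subunit, was at 4218 (PBS) and 3564 (MIF), 1.18-fold lower and the largest difference of the 3. Etfa, the alpha subunit, was at 4261 and 3958 (-0.11), and Etfdh at 1551 and 1599 (0.04). The partner subunits were both lower, while the gene of their acceptor was slightly higher.

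The 6 enzymes of the later steps were lower on the MIF array on their brightest probe set with the columns as deposited, by small amounts. Over all assessed genes 53.3% were lower. Among genes with mean signals of at least 1662, where most of the 6 lay, 63.5% were lower. Echs1 and Hadh turned higher with quantile normalization (0.03 and 0.04) and with the signal trend removed (0.03 and 0.03). Hadha and Hadhb encode the subunits of the trifunctional protein, which handles long chains at the inner membrane. Hadha was at 2731 and 2495 (-0.13) and Hadhb at 4646 and 4357 (-0.09). Echs1, the short-chain enoyl-CoA hydratase, was at 3057 and 3055, the closest pair of the set. Hadh, the short-chain 3-hydroxyacyl-CoA dehydrogenase, was at 10401 and 10097 (-0.04) on a probe set that can cross-hybridise. A second Hadh probe set gave -0.0087. Hsd17b10, a matrix dehydrogenase of branched acyl chains that is also part of mitochondrial RNase P, was at 1689 and 1504 (-0.17). Acaa2, the matrix thiolase that releases acetyl-CoA, was at 2063 and 1861 (-0.15), though another of its probe sets gave 0.0033. For Hadhb a second probe set went the other way, at 2516 and 2979 (0.24).

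Unsaturated acyl chains need auxiliary enzymes that move or reduce their double bonds. Eci1, the mitochondrial enoyl-CoA isomerase, was at 1383 (PBS) and 1077 (MIF), 1.28-fold lower on its single probe set. Decr1, the mitochondrial dienoyl-CoA reductase, was at 3008 and 2739 (-0.14), but a dimmer probe set was at 332 and 389 (0.23). The 20 assessed mitochondrial members had a median of -0.08, with 15 lower (75%), against 53.3% of all assessed genes. Most of them had mean signals of at least 1662, where 63.5% of all genes were lower. With probe sets averaged the median of the mitochondrial members was 0.0050, beside 0.0029 for all genes. Of the 19 above the floor on both arrays, only Eci1 reached 1.2-fold on the brightest probe set. Crat, found in several compartments, is not counted among these.

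Ketone body metabolism was represented by 2 members. Acat1, the mitochondrial thiolase that acts on acetoacetyl-CoA in both ketone synthesis and use, was at 3993 and 3796 (-0.07), and its 2 other probe sets gave -0.05 and -0.0065. Bdh1, which interconverts acetoacetate and beta-hydroxybutyrate, was at 3073 and 2963 (-0.05), with 0.13 on a second probe set. On its brightest probe set, neither differed beyond that SD of 0.13.

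Thioesterases release free fatty acids from acyl-CoA. Acot8, the broad peroxisomal thioesterase, was at 1400 (PBS) and 1111 (MIF), 1.26-fold lower on its single probe set. Acot1, a cytosolic enzyme induced by PPARalpha ligands in liver, was under the floor on both arrays, at 126 and 146.

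Peroxisomal beta-oxidation genes held a member at least 1.2-fold lower and another at least 1.2-fold higher. Acaa1a, a thiolase of the straight-chain pathway, was at 554 and 390, 1.42-fold lower. Its probe set is of a kind that can cross-hybridise, which bears on it because Acaa1b is a close paralogue. The second Acaa1a probe set was under the floor on both arrays, at 230 and 179, as was the Acaa1b probe set, at 179 and 140. Decr2, the peroxisomal dienoyl-CoA reductase, was at 255 and 307, 1.2-fold higher with a PBS signal near the floor. Its mitochondrial counterpart Decr1 was lower on the brightest probe set, as given above.

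The other peroxisomal enzymes lay within 1.2-fold. Ehhadh, the bifunctional enzyme of straight-chain acyl-CoA and a classical PPARalpha target, was at 681 (PBS) and 612 (MIF) (-0.15). Hsd17b4, the bifunctional enzyme of branched chains and bile acid precursors, was at 1015 and 1000.2 (-0.02) on a probe set that can cross-hybridise. A second Hsd17b4 probe set gave -0.19. Eci2, the peroxisomal enoyl-CoA isomerase, was at 1007 and 929 (-0.12). Scp2, which encodes sterol carrier protein and a thiolase of branched chains, was at 3767 and 3677 (-0.03), and 2 other probe sets gave 0.08 and 0.20. The direction of Scp2 therefore depended on the probe set, and it also turned with quantile normalization, to 0.0018.

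Peroxins assemble the organelle. Pex13 and Pex14, of the docking complex for incoming enzymes, were at 1056 and 1038 (-0.03) and at 514 and 472 (-0.12). Pex7, the import receptor for proteins with a type 2 targeting signal such as the thiolase, was at 960.4 and 980.4 (0.03), and at -0.0081 with centred columns. Pex2, a ring finger protein of the receptor recycling complex, was at 1151 and 1145 (-0.0065), and at 0.01 with quantile normalization. Pex19, the chaperone of peroxisomal membrane proteins, was at 743 and 691 (-0.10), with 0.06 on a second probe set. Pex11a, which elongates and divides peroxisomes and responds to PPARalpha, was at 722 and 666 (-0.12), with -0.15 on a second one. With the columns as deposited 5 of the 6 peroxins were lower, and all 6 lay within 1.2-fold on the brightest probe set. Over the 13 assessed peroxisomal members the median was -0.10, and 11 were lower (84.6%). Over all assessed genes the median was -0.01, and 53.3% were lower.

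**Figure D2:**
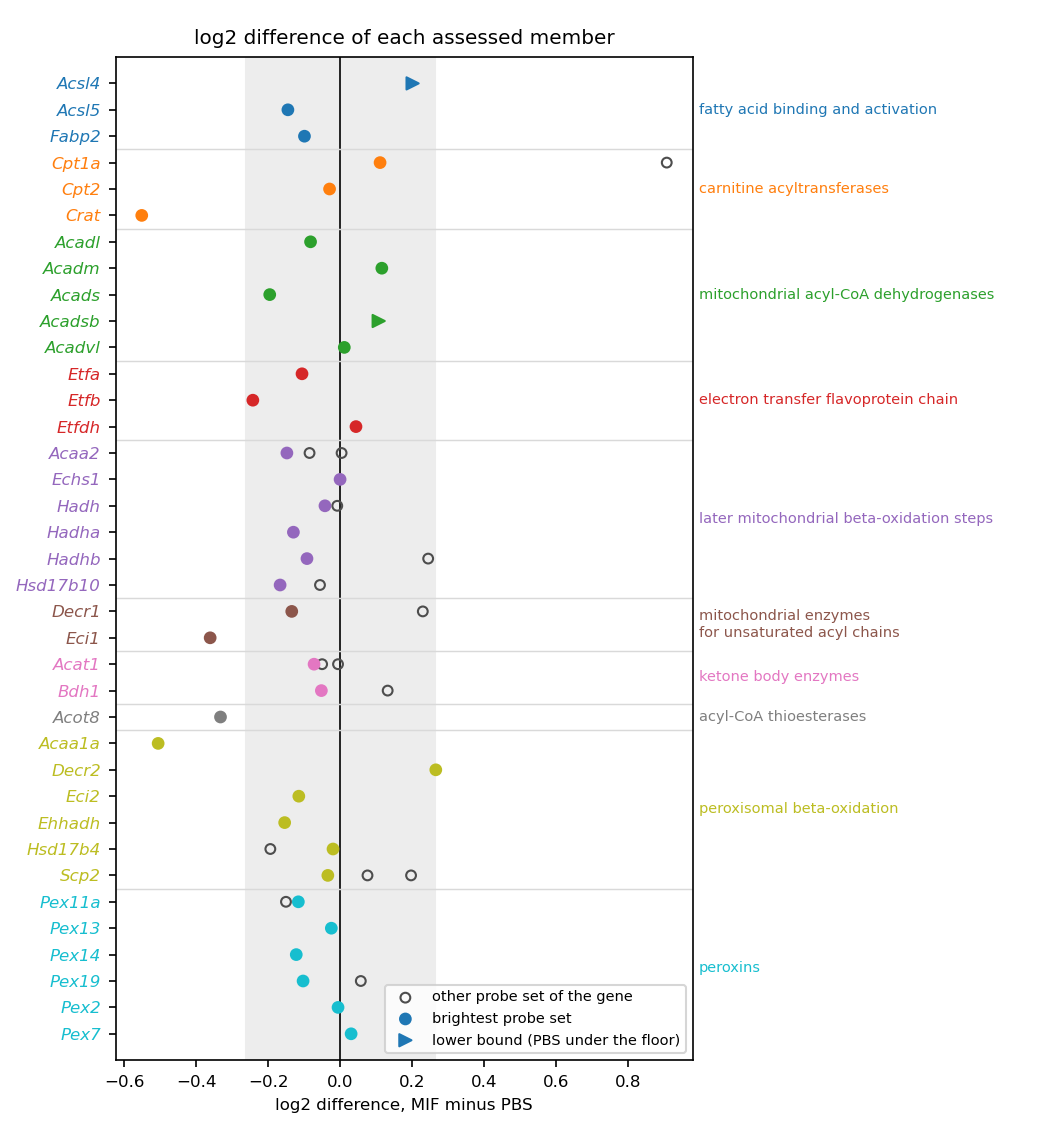
log2 difference, MIF minus PBS, of the 37 assessed members by role. Filled circles are the brightest probe set, open circles other probe sets exceeding the floor throughout, triangles lower bounds, and the grey band the range within 1.2-fold. Crat, Acaa1a, Eci1 and Acot8 lie left of the band, Decr2 lies at its right edge at 0.26, and the second Cpt1a probe set stands apart at 0.91.

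Where a member had several probe sets exceeding the floor throughout, they often differed in sign. This was so for 6 of 12 such members, namely Acaa2, Bdh1, Decr1, Hadhb, Pex19 and Scp2. In Acat1, Cpt1a, Hadh, Hsd17b10, Hsd17b4 and Pex11a all such probe sets had the same sign. The median range between the probe sets of a member was 0.17 on the log2 scale, larger than the size of the members' median difference. With the probe sets of each gene averaged, 22 of 35 assessed members (62.9%) were lower, against 49.2% of all genes, and the medians were -0.08 and 0.0029.

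Bright probe sets as a whole were slightly lower on the MIF array, and many members lie among them. Genes above the floor on both arrays were divided into 4 nearly equal groups by mean signal. In the brightest group, with mean signals of at least 1662, 63.5% of all genes were lower, with a median of -0.04. Of the 19 members in that group 16 were lower, with a median of -0.08. In the next brightest group 7 of 9 members and 53.6% of all genes were lower, with medians of -0.03 and -0.01. In the next, 5 of 5 members and 48.7% of all genes were lower, with medians of -0.12 and 0.0042. The dimmest group held only Crat and Decr2. After the trend of the difference with signal was removed, 26 of 37 members (70.3%) were lower, against 53.0% of all genes, with medians of -0.05 and -0.01. Quantile normalization gave 25 of 37 members (67.6%), against 54.5% of all genes, and medians of -0.05 and -0.02. The median of the members minus that of all genes was thus -0.08 with the columns as deposited and -0.04 under both corrections.

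**Figure D3:**
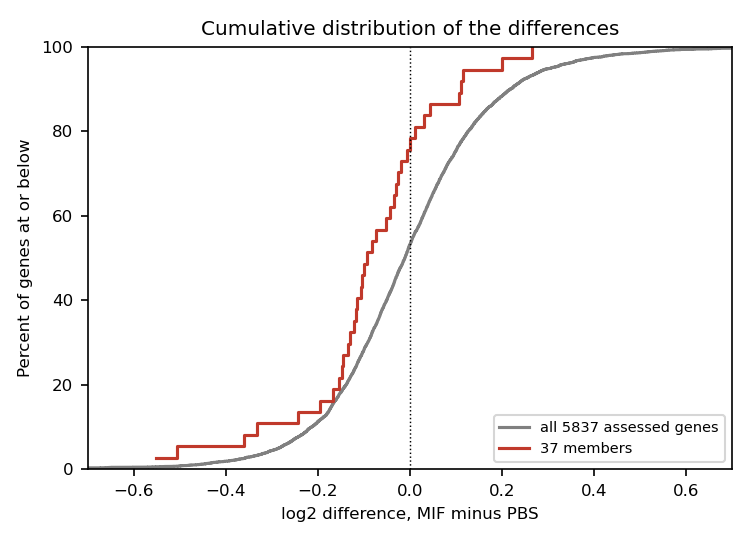
Percent of genes (vertical axis) at or below each log2 difference, MIF minus PBS (horizontal axis), for the 37 assessed members (red) and all 5837 assessed genes (grey). At 0 the members stand at 78.4% and all genes at 53.3%, and both curves lie mostly between -0.2 and 0.2.

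**Figure D4:**
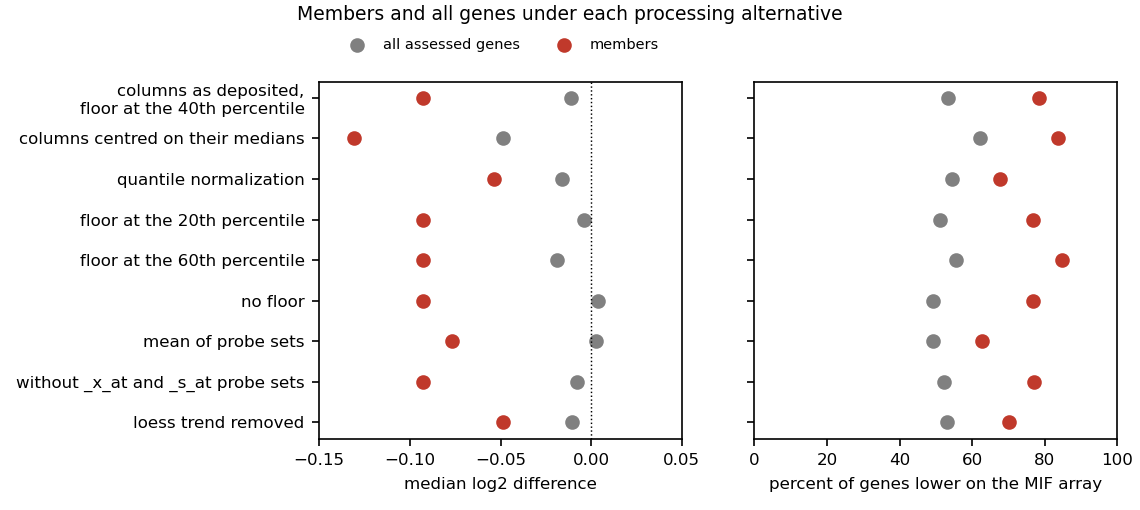
Median log2 difference (left) and percent of genes lower on the MIF array (right) for the members (red) and all assessed genes (grey) under each processing alternative. The members' median stays between -0.13 and -0.05 and lies below that of all genes in each alternative shown.

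Neighbouring genes of the pathway were described from lists drawn up separately from the members. Of 35 other genes of fatty acid oxidation and ketone body metabolism, 24 were assessed, with a median of -0.09 and 15 (62.5%) lower. Over all assessed genes 53.3% were lower. At 1.2-fold 3 were lower (12.5%) and 2 higher (8.33%), against 6.29% and 6.82% of all assessed genes. Such counts rest on few genes in each list. The largest differences were in Acsm3, of the family that activates medium-chain fatty acids, at 1178 (PBS) and 1672 (MIF) (0.51), and in Acss2, the cytosolic synthetase that activates acetate, at 1438 and 1940 (0.43). A second Acss2 probe set gave 0.41. Gcdh, the glutaryl-CoA dehydrogenase of lysine breakdown, was at 496 and 405 (-0.29). Acsm3 and Acss2 thus went opposite to most members, while other activating enzymes of this list went either way.

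Of 36 other peroxisome genes, 18 were assessed, with a median of -0.03 and 10 lower. That is 55.6% lower, against 53.3% of all assessed genes. At 1.2-fold 2 were lower (11.1%) and 3 higher (16.7%), against 6.29% and 6.82% of all assessed genes. Gnpat and Far1, which act in ether lipid synthesis at the peroxisome, were higher, Gnpat at 251 and 344 (0.45, with PBS near the floor) and Far1 at 2234 and 2765 (0.31). All 5 Far1 probe sets were higher on the MIF array, by 0.19 to 0.63. Cat, the peroxide-degrading enzyme of the organelle, was at 1680 and 1355 (-0.31), but its second probe set gave 0.15.

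Of 28 PPAR receptors, coregulators and other PPAR target genes, 13 were assessed, with a median of -0.03, 7 lower and 6 higher. That is 53.8% lower, against 53.3% of all assessed genes. At 1.2-fold 3 were lower (23.1%) and 1 higher (7.69%), against 6.29% and 6.82% of all assessed genes. Mgll, which hydrolyses monoglycerides, was at 641 and 422, a log2 difference of -0.60, but a second probe set gave -0.08. Rxra, the retinoid X receptor that partners PPARs, was at 810.3 and 578 (-0.49), and Plin3, a lipid droplet coat protein, at 1319 and 1089 (-0.28). Pparg had nearly equal signals of 1254 and 1224, and Ppara was under the floor on both arrays.

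Of 23 genes of fatty acid and triglyceride synthesis, 15 were assessed, with a median of 0.02 and 6 lower. That is 40% lower, against 53.3% of all assessed genes. At 1.2-fold 2 were lower (13.3%) and none of the 15 was higher on its brightest probe set. The shares of all assessed genes were 6.29% and 6.82%. Scd1, which introduces the double bond of oleate, was at 617 and 442 (-0.48). Elovl1, which elongates very long saturated chains, was at 2579 and 2008 (-0.36), and its 2 other probe sets gave -0.28 and -0.09. Acly, which makes cytosolic acetyl-CoA from citrate, was at 3039 and 3583 (0.24). The median of this list was above 0 and that of the members below it, and the difference between the lists was not tested.

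Cell type markers were read on the same arrays. All 13 markers of colonocytes and general epithelium in the list were above the floor on both arrays, with a summed signal of 105569 (PBS) and 103269 (MIF). Their median log2 difference was -0.05 and 9 (69.2%) were lower, a shift in the same direction as that of the members. All 13 lay in the brightest signal group, where 63.5% of all genes were lower, with a median of -0.04. The markers were thus close to other genes of like signal. Goblet cell markers had a median of 0.02 over 5 genes, with sums of 39114 and 41782. Of 7 fibroblast markers, Col3a1, Dcn and Vim were assessed, all 3 higher on the MIF array, and the summed signal of the list was 751 and 1877. Dcn was at 235, near the floor, and 678 (1.53), the largest rise of all assessed genes. Col3a1 and Vim were under the floor with PBS, with bounds of 1.26 and 0.13. Of the T and NK cell list, 6 of 10 genes were in the table and Gzma and Gzmb were assessed, with a sum for the list of 1690 and 917. Of 7 myeloid markers only Lyz2 was assessed, above the floor on the MIF array alone, with sums of 602 and 716. The listed B and plasma cell, smooth muscle, endothelial and adipocyte markers in the table were under the floor on both arrays, with 1, 1, 3 and 1 genes, and 0 of 4 erythroid markers had a probe set. In RNA from many cells, fewer cells of a type and less RNA per cell cannot be told apart, and the part of cell makeup in the members' differences was not tested.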

How the data were processed

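The authors deposited a processed signal intensity per probe set, whose linear scale was read from the values. The sources used here do not give the summarisation, background correction or scaling. RNA was labelled with biotin by the Affymetrix procedure, per the labels' protocols. Of 15340 probe sets, 61 controls were left out, 14049 had 1 gene symbol in the platform annotation, 490 several and 740 none. The last 2 kinds were not used. Column medians were 337 (PBS) and 346 (MIF), a log2 difference of 0.04, so columns were used as deposited. Differences are log2 MIF minus PBS, after raising signals to a floor at the 40th percentile.

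The members and lists were chosen with earlier results of these data known. Named genes are every member and the 3 largest differences of each neighbouring list. Pparg and Ppara were named after their values were seen, and the markers as those above the floor. Promoter sequences are from RefSeq, GRCm38.p6. Protein sequences were not used here. The steps were run on simulated data with shifts planted in bright genes only. Those shifts were larger than most of the members' differences, so that run says nothing of shifts as small as the members' median. Alternatives changed the scaling, floor, probe set rule, signal trend (loess, span 0.3) and fold limit. The 2 arrays limit the precision. Software was Python 3.11.15, statsmodels 0.14.6, matplotlib 3.10.9, pandas 2.3.3 and numpy 2.4.6.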

Additional observations from a re-analysis of the deposited data

How the results depend on the processing

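The median of the members stayed below 0 in the 8 alternatives run, from -0.13 (columns centred on their medians) to -0.05 (loess trend removed). From 22 of 35 (mean of probe sets) to 31 of 37 members (centred columns) were lower on the MIF array. The shares of all assessed genes in these 2 settings were 49.2% and 62.1%. The medians of the mitochondrial and peroxisomal members moved by less than the probe set SD of 0.13. But that of the mitochondrial members turned from -0.08 to 0.0050 with the mean of probe sets, where that of all genes was 0.0029. The count at least 1.2-fold higher was 1 as reported, Decr2. It was 0 with centred columns, quantile normalization, the floor at the 60th percentile or the loess trend removed. The shares of all assessed genes there were 5.14%, 5.98%, 4.94% and 6.17%. It was 2 with the floor at the 20th percentile or no floor, against 10.2% and 15.6% of all assessed genes. With the mean of probe sets it was 3, against 7.30%. The count at least 1.2-fold lower was 4 as reported. It was 5 with centred columns, the floor at the 20th percentile or no floor, against 8.90%, 7.59% and 10.3% of all assessed genes. With the floor at the 60th percentile it was 2, against 5.49%. There Acaa1a differed by -0.15 because its MIF signal was raised to that floor, and Crat was under it on both arrays. The count was 3, against 6.13%, without probe sets ending in _x_at or _s_at, where Acaa1a had none left. At 1.5-fold both counts were 0. Many values of single members could move little under these alternatives by construction. A lower or absent floor leaves members above it unchanged, and averaging leaves members with 1 probe set unchanged. Centring the columns shifts nearly all members by the same small amount. Of 288 values of single members, 279 moved by less than that SD, and 9 by more, so this count is no measure of stability. The sign changed in 16 of them, over 11 members, Acaa2, Acadvl, Bdh1, Cpt2, Decr1, Echs1, Hadh, Hadhb, Pex2, Pex7 and Scp2, none of which was at 1.2-fold as reported. With the mean of probe sets Cpt1a was at 0.45 and Hadh at 0.57, the latter with a dim probe set at 78.2 (PBS) and 264 (MIF), and Decr1 and Hadhb at 0.05 and 0.08. Acadsb was at 0.75 with no floor or with it at the 20th percentile. No paired analysis was possible because each group has 1 array. Signals near the floor limit Crat, Decr2, Acsl4 and Acadsb most.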
